A study of Rattus norvegicus with 9 samples.

Results

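The genes described here encode proteins of the synaptic vesicle and of the SNARE machinery that fuses vesicles with membranes. Members were taken by gene symbol from the array's platform annotation: the synaptotagmins (Syt), synapsins (Syn1, Syn2, Syn3), syntaxins (Stx), VAMPs, the SV2 proteins, complexins (Cplx), the RAB3 GTPases, the syntaxin-binding proteins (Stxbp), Snap23, Snap25, Snap29 and Snap91, and Syp, Nsf, Pacsin1, Bsn and Pclo. This gave 97 probe sets of 61 genes, out of 31042 probe sets and 14217 genes with a single symbol on the array. A probe set is a group of short probes for 1 transcript. Of the members, 74 probe sets of 51 genes had a mean level high enough to be tested, and 23 probe sets did not.

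The study exposed material from rat hippocampus to ketone bodies, the fuel that the liver makes from fat and that brain can use in place of glucose. RNA was measured on 3 arrays after 1 h of ketone bodies, on 3 arrays after 6 h of ketone bodies, and on 3 control arrays of material kept in artificial cerebrospinal fluid without ketone bodies. How long the control was kept, the strain, the age and the dose are not in the labels, and neither is whether replicates of a group are separate animals or cultures. A p-value therefore measures the spread among these 9 arrays, which may be technical. The labels speak of neurons, but markers of glia gave strong signals too. The mean signal over all arrays was 6302.9 for a probe set of the myelin gene Mbp and 2084.7 for that of the astrocyte gene Gfap, and it was 4381.7 for Nrgn, a gene of excitatory neurons. In such mixed RNA, fewer neurons and less RNA per neuron cannot be told apart.

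Vesicle release works as a cycle. Vesicles are filled with transmitter, tethered by synapsins, docked at the active zone by RAB3 and scaffold proteins, and fused when the vesicle SNARE (a VAMP) zips up with the membrane SNAREs (a syntaxin and a SNAP25-type protein) under control of Munc18-type proteins and complexins. Some synaptotagmins, such as Syt1, sense the calcium that triggers fusion, NSF takes the spent SNARE complexes apart, and endocytosis recovers the membrane. Not all members serve the synapse: several syntaxins, VAMPs and Snap23 and Snap29 act in traffic between organelles of every cell type.

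Before the members, some facts on the arrays as a whole are needed. The values are log2(signal + 16) after quantile normalisation, and a log2 change is a difference on that scale, given with its standard error (SE) from a limma fit over 3 arrays per group. Array medians of log2(signal + 16) ran from 5.67 to 5.88 before normalisation, and the number of arrays limits the precision. On the first principal component of the tested probe sets, array 3 of the 1 h group and array 1 of the 6 h group lay farthest out. A sign of RNA quality also differed between arrays, the beta-actin 3'/5' ratio (log2), which sets control probes at the 3' end of that transcript against those at its 5' end. That ratio was 1.39, 2.16 and 2.02 at 1 h, 2.58, 1.92 and 1.03 at 6 h, and 1.37, 1.27 and 1.42 in control. The group means were 1.85 ± 0.41 at 1 h, 1.84 ± 0.78 at 6 h and 1.35 ± 0.08 in control (SD, n = 3 each), and an exact 2-sided permutation test gave p = 0.2 for 1 h and p = 0.4 for 6 h against control (adjusted p = 1 for both, over 6 comparisons), where 0.1 is the smallest p that 3 against 3 allows. The same ratio for Gapdh was 0.11 ± 0.04 at 1 h, 0.19 ± 0.23 at 6 h and 0.13 ± 0.11 in control. The same permutation test gave p = 0.8 for Gapdh at 1 h and at 6 h against control.

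The first question was which vesicle and SNARE genes differed after 1 h or 6 h of ketone bodies. None passed an adjusted p of 0.05. By limma, 0 of the 74 member probe sets passed at 1 h (0.0322% of all 18625 tested probe sets did), 0 at 6 h (0.0268% of all), 0 between 6 h and 1 h (0% of all) and 0 in the F test for any difference among the 3 groups (0.0215% of all). The lowest adjusted p of any member was 0.299 at 1 h against control, 0.397 at 6 h against control and 0.996 at 6 h against 1 h, and it was 0.487 in the F test. At an unadjusted p under 0.05, 3 members were higher at 1 h (4.05% of the members, 6.68% of all probe sets) and 1 was lower (1.35%, against 4.67% of all). At 6 h against control 0 were higher (2.79% of all) and 1 was lower (1.35%, against 1.47% of all). At 6 h against 1 h 0 were higher (1.31% of all) and 3 were lower (4.05%, against 1.41% of all). These shares lay near or under those of the whole array, except the last, which rests on 3 probe sets. Single arrays moved the counts. A count printed below without its share of all probe sets is not read as a result about the members. The count lower at 1 h was 8 without array 1 of the 6 h group (7.01% of all probe sets in that setting), 3 without array 3 of that group or control array 1, and 0 without control array 2 or 3, and the count higher at 1 h was 1 without array 2 of the 1 h group. The count lower at 6 h was 10 without array 3 of the 6 h group (4.67% of all in that setting) and 2 without its array 1 or 2 or without array 2 of the 1 h group. The count higher at 6 h was 2 without array 1 of the 6 h group, and 1 without its array 3 or without control array 1. At 6 h against 1 h the count higher was 5 without array 1 of the 6 h group (4.22% of all in that setting), 2 without its array 2, and 1 without control array 1 or array 2 of the 1 h group, and the count lower was 1 without control array 2 or array 1 of the 6 h group.

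As a list, the members had medians near 0. Their median log2 change was -0.03 at 1 h (range -1.30 to 0.57), beside 0.03 for all probe sets tested. At 6 h it was -0.05 (range -0.79 to 0.31), beside 0.01 for all. Between 6 h and 1 h it was -0.06 (range -0.63 to 0.76), beside -0.01 for all. A positive log2 change was seen for 34 of 74 members at 1 h (55.3% of all probe sets), 29 of 74 at 6 h (53.8%) and 34 of 74 at 6 h against 1 h (47%). This split depended on the scaling, for the members and for the whole array. With each array centred on its median instead, 46 of 74 members were positive at 1 h (median 0.10). Of all 18625 probe sets tested, 12225 were (median 0.10). At 6 h 42 of 74 members were positive (median 0.02), beside 12148 of all 18625 (median 0.07). At 6 h against 1 h 25 of 74 were, beside 7968 of all 18625 (median -0.03). The median SE of a member was 0.14 and that of all probe sets 0.15. On each array, the median deviation of the members from their control mean was 0.00, -0.05 and 0.03 at 1 h, -0.05, -0.05 and 0.04 at 6 h, and -0.03, 0.07 and -0.04 in control, so the groups overlapped. Values of the 1 h group all lay above those of the control for 10 member probe sets (13.5%, against 13% of all) and all below for 8 (10.8%, against 8.26% of all). For the 6 h group against the control, 3 lay above (4.05%, against 6.05% of all) and 3 below (4.05%, against 3.15% of all), and against the 1 h group 1 lay above (1.35%, against 3.55% of all) and 5 below (6.76%, against 4.04% of all).

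**Figure D1:**
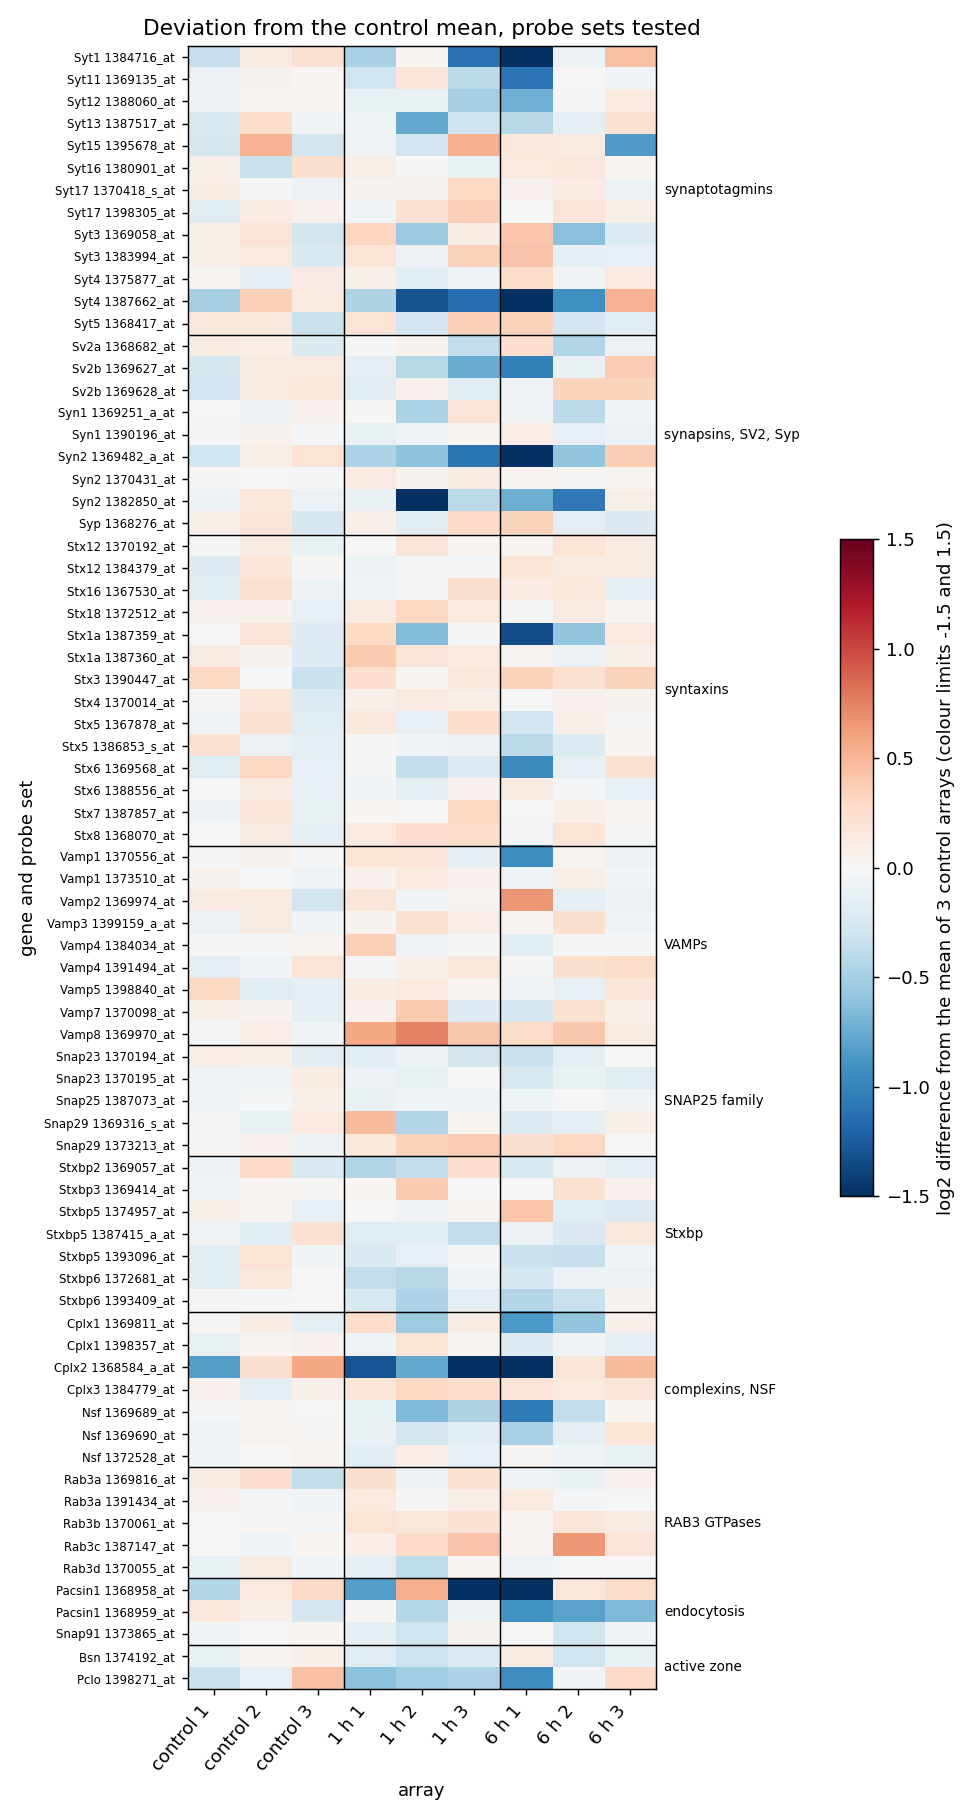
Heat map of all 74 member probe sets tested (rows, by role) on the 9 arrays (columns: control, 1 h, 6 h), coloured by the log2 difference from the mean of the 3 control arrays, with the colour limits at -1.5 and 1.5. Most rows are pale, and the dark blue cells lie in a few rows such as Cplx2, Syt4 1387662_at and Syn2 1369482_a_at, mostly on arrays 2 and 3 of the 1 h group and array 1 of the 6 h group.

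Among the vesicle SNAREs, the VAMPs, all 9 probe sets of 7 genes had a positive log2 change at 1 h (median 0.09, range 0.06 to 0.57), and 8 of 9 did with the values as deposited. At 6 h 6 of 9 were positive (median 0.02). Vamp8, a SNARE of late endosomes and secretory granules in many cell types, had the smallest p of all members at 1 h. Its values were 7.32, 7.49 and 7.14 at 1 h, against 6.71, 6.84 and 6.68 in control, and 7.02, 7.15 and 6.87 at 6 h. All 1 h values lay above all control values, and so did the 6 h values, the nearest of which was 6.87 against a control value of 6.84. The log2 change was 0.57 ± 0.13 at 1 h (1.49-fold, adjusted p = 0.299 by limma) and 0.27 ± 0.13 at 6 h (1.20-fold, adjusted p = 0.987). Between 6 h and 1 h it was -0.31 ± 0.13 (adjusted p = 0.996). In the 22 other ways of processing the values, the change at 1 h stayed between 0.42 and 0.66 with an adjusted p of 0.0903 to 0.772. Vamp8 is also expressed by microglia and other non-neuronal cells, and some of their markers moved at 1 h. Of 9 microglia marker probe sets tested, 0 passed an adjusted p of 0.05 by limma. At an unadjusted p under 0.05 there were 3 higher (Aif1, C1qa and Tmem119) and 2 lower (both of P2ry12). Of all probe sets tested, 6.68% were higher and 4.67% lower by that rule. The summed signal of the microglia markers was 1562 to 1691 at 1 h, 1545 to 1553 at 6 h and 1511 to 1601 in control. Their part in the Vamp8 result was not tested.

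The synaptic VAMPs showed smaller differences. Vamp2, the vesicle SNARE of most central synapses, had 10.80, 10.57 and 10.66 at 1 h, 11.28, 10.47 and 10.54 at 6 h, and 10.76, 10.75 and 10.35 in control. The groups overlapped, and the log2 changes were 0.06 ± 0.20 at 1 h and 0.15 ± 0.20 at 6 h. Vamp1, which takes that role at other synapses, was read by 2 probe sets. The first (1370556_at) had 7.30 on array 1 of the 6 h group and between 8.10 and 8.45 on the other 8 arrays, which gave -0.33 ± 0.22 at 6 h against control and -0.41 ± 0.22 at 6 h against 1 h. The second (1373510_at) ran only from 9.82 to 10.02 over all arrays. Vamp3, Vamp4, Vamp5 and Vamp7, which serve endosomes, the Golgi and the cell surface, had log2 changes between 0.07 and 0.13 at 1 h. Vamp5 lies next to Vamp8 on rat chromosome 4 with 0 coding genes between them in RefSeq (GRCr8). Its log2 change was 0.10 ± 0.16 at 1 h, against 0.57 ± 0.13 for Vamp8.

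The promoter sequences of Vamp8 and Bsn are shown because these genes had the smallest p among members that were higher and lower at 1 h. RefSeq (GRCr8) gives the following 300 bases, 250 before to 50 after the gene's start, printed 5′ to 3′ on the gene's strand. Vamp8 lies at chr4:106005593-106005892 on the minus strand and Bsn at chr8:117754363-117754662 on the minus strand. Capitals mark the GC box GGGCGG on either strand, the core letters that factors of the Sp family bind.
Vamp8: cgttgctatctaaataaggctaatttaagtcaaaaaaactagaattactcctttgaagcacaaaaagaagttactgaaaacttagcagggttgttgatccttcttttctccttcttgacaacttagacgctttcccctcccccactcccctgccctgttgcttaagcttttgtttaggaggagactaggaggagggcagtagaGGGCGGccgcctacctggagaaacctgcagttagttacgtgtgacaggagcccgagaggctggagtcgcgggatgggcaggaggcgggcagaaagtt
Bsn: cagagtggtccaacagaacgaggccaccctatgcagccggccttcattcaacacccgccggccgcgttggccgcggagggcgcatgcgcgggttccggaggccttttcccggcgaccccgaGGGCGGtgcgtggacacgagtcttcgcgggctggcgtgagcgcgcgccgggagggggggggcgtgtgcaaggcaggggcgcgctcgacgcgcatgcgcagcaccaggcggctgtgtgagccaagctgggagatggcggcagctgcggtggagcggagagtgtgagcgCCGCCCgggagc
The Vamp8 window holds 1 GC box and the Bsn window 2, and their base composition differs, with 49.0% G and C for Vamp8 and 73.0% for Bsn. Of the 61 member genes, 49 had a promoter entry. A GC box stood in 35 of these 49 (71.4%), against 57.5% of the 11701 promoters of genes on the array. The TATA box, searched as TATAAA on both strands, stood in 1 of 49 (2.04%, against 8.46% on the array), and the cAMP response element, searched as TGACGTCA, in 2 of 49 (4.08%, against 2.85%). None of these 3 motifs contains another. These matches describe the windows and say nothing about binding. The part of base composition in them was not tested.

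Among the target membrane SNAREs, the 14 syntaxin probe sets tested had a median log2 change of 0.09 at 1 h, with 9 positive and 5 negative, and of 0.04 at 6 h, with 9 positive and 5 negative. Stx1a, the neuronal syntaxin of the release site, had 10.11, 9.90 and 9.87 at 1 h, 9.77, 9.64 and 9.82 at 6 h, and 9.86, 9.78 and 9.53 in control on 1387360_at. The 1 h values lay just above the highest control value of 9.86 and above every 6 h value, with a log2 change of 0.24 ± 0.11 at 1 h (adjusted p = 0.444) and of -0.22 ± 0.11 at 6 h against 1 h. The other Stx1a probe set (1387359_at) gave -0.12 ± 0.34 at 1 h and -0.59 ± 0.34 at 6 h, so the 2 probe sets did not point the same way. Stx8 (0.22 ± 0.11) and Stx18 (0.20 ± 0.11), which act in endosomes and in traffic to the endoplasmic reticulum, were the next largest at 1 h, with all 1 h values above those of the control (adjusted p = 0.479 and 0.505). Stx3, a syntaxin of apical membranes and of ribbon synapses, had 5.50, 5.38 and 5.51 at 6 h against 5.47, 5.17 and 4.84 in control (0.31 ± 0.17). It had the lowest mean signal of the members tested (24.07), close to the filter. Stx12, an endosomal syntaxin, had 6.01, 5.96 and 5.96 at 6 h, against 5.75, 5.80 and 5.80 at 1 h on 1384379_at (0.19 ± 0.13). It was the member probe set whose 6 h values all lay above the 1 h values. Its control values of 5.63, 6.00 and 5.83 spanned nearly the whole of both groups. The brighter Stx12 probe set (1370192_at, mean signal 865.26) gave 0.05 ± 0.09 at 6 h against 1 h, and those groups overlapped. Syntaxins of the Golgi and endosomes (Stx5, Stx6, Stx7 and Stx16) and Stx4 of the cell surface had log2 changes between -0.19 and 0.12 at 1 h.

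The SNAP25 family supplies the second membrane SNARE. Snap25, its neuronal member, which pairs with Stx1a and Vamp2, had 12.53, 12.56 and 12.58 at 1 h, 12.55, 12.61 and 12.56 at 6 h, and 12.55, 12.60 and 12.71 in control. These values overlapped, and the log2 changes of -0.06 ± 0.05 at 1 h and -0.04 ± 0.05 at 6 h carry the smallest SE of all members. That SE holds for the quantile normalised values. The deposited signals ran from 5454.2 on control array 1 to 7216 on array 3 of the 1 h group. In the 22 other ways of processing, the change at 1 h ran from -0.09 to 0.18. Snap29, which serves fusion of autophagosomes and other organelles, had 7.93, 8.12 and 8.16 at 1 h, 8.02, 8.09 and 7.78 at 6 h, and 7.79, 7.84 and 7.70 in control on 1373213_at. All 1 h values lay above those of the control (0.30 ± 0.12, 1.23-fold, adjusted p = 0.409), while at 6 h the value of array 3 lay among them (0.19 ± 0.12). A dim second probe set of Snap29 (1369316_s_at, mean signal 24.53) gave 0.03 ± 0.22 at 1 h. Snap23, a relative of Snap25 found in many cell types, gave -0.18 ± 0.14 and -0.07 ± 0.11 at 1 h and -0.15 ± 0.14 and -0.18 ± 0.11 at 6 h on its 2 probe sets. On 1370195_at the 6 h values of 6.49, 6.63 and 6.56 lay just under the control values of 6.69, 6.67 and 6.85.

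**Figure D2:**
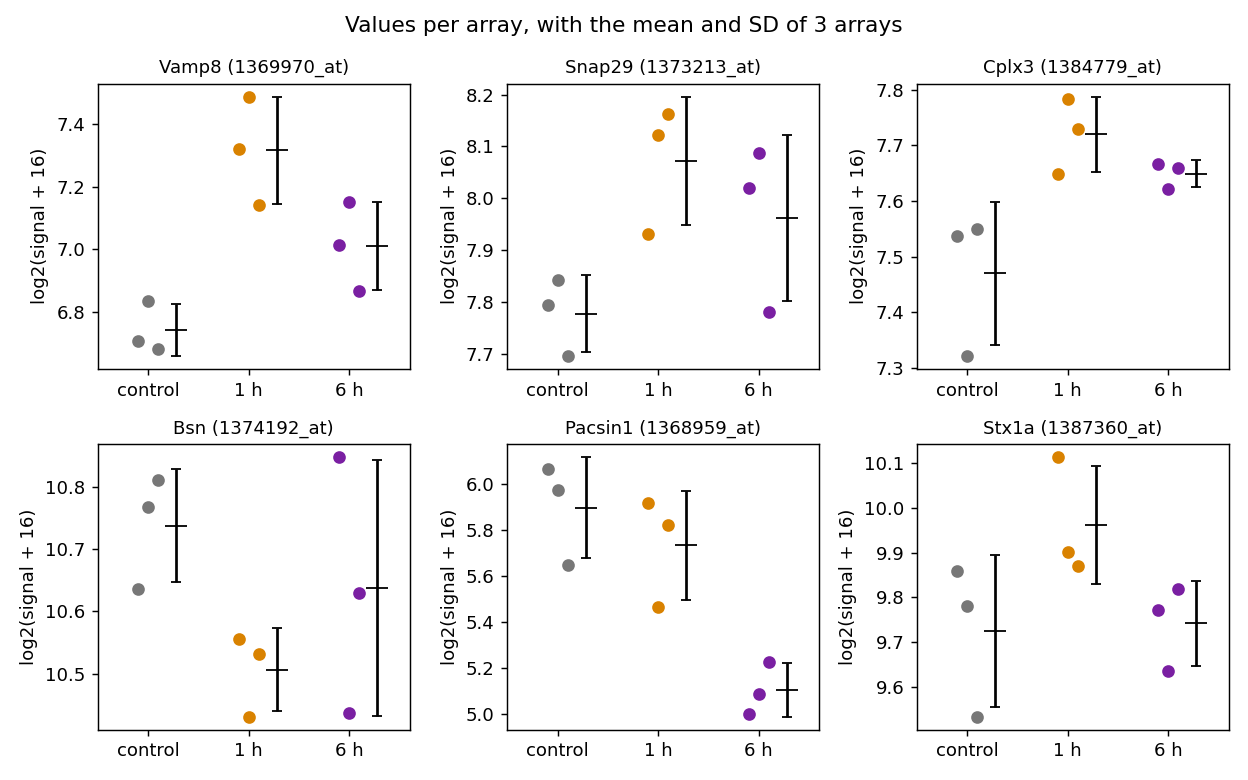
Values of log2(signal + 16) per array (points) with the mean and SD of 3 arrays (bars) for 6 member probe sets in control, 1 h and 6 h. The 1 h values of Vamp8, Snap29 and Cplx3 lie above their control values, those of Bsn lie below, and Pacsin1 1368959_at is lowest at 6 h (4.999 to 5.23).

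Among regulators of the SNAREs, the 7 probe sets of syntaxin-binding proteins had a median log2 change of -0.18 at 1 h, with 1 positive and 6 negative, and of -0.15 at 6 h, with 2 positive and 5 negative. With median centring, 2 of 7 were positive at 1 h (median -0.13, beside 0.10 for all probe sets tested). Stxbp6, known as amisyn, a protein that binds SNAREs without driving fusion, was read by 2 probe sets that agreed in sign. On 1372681_at it had 9.50, 9.44 and 9.83 at 1 h, against 9.69, 10.03 and 9.87 in control (-0.27 ± 0.12, adjusted p = 0.443), and the groups overlapped. On 1393409_at it had 7.90, 7.67 and 7.99 at 1 h against 8.15, 8.10 and 8.13 in control (-0.28 ± 0.14, adjusted p = 0.481), and all 1 h values lay below. At 6 h the 2 probe sets gave -0.15 ± 0.12 and -0.24 ± 0.14. Stxbp5, or tomosyn, which holds syntaxin and SNAP25 back from VAMP, gave -0.24 ± 0.13 at 6 h on 1393096_at and 0.01 ± 0.16 and -0.05 ± 0.15 on the others. Stxbp3, a Munc18 protein found in many tissues, gave 0.14 ± 0.12 at 1 h, and Stxbp2, its relative in secretory and blood cells, -0.18 ± 0.21.

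The complexins clamp and help the assembled SNAREs. Cplx3, a complexin best known from retinal ribbon synapses, had 7.65, 7.78 and 7.73 at 1 h, 7.67, 7.62 and 7.66 at 6 h, and 7.54, 7.32 and 7.55 in control. Both exposed groups lay above the control (0.25 ± 0.11 at 1 h, adjusted p = 0.424; 0.18 ± 0.11 at 6 h, adjusted p = 0.987). Cplx2, a main complexin of the forebrain, had the most negative log2 change of any member and also the widest spread. Its values were 6.78, 7.31 and 6.23 at 1 h, 5.81, 8.26 and 8.55 at 6 h, and 7.25, 8.32 and 8.66 in control. One 1 h value lay above the lowest control value, and the log2 changes were -1.30 ± 0.65 at 1 h (adjusted p = 0.472) and -0.54 ± 0.65 at 6 h. Cplx1 was read by 2 probe sets. The steadier (1398357_at) had 11.51, 11.66 and 11.57 at 6 h, 11.65, 11.92 and 11.74 at 1 h, and 11.60, 11.75 and 11.78 in control, which gave -0.19 ± 0.08 at 6 h against 1 h (adjusted p = 0.996) and -0.13 ± 0.08 at 6 h against control. The other (1369811_at) gave -0.46 ± 0.25 at 6 h, with 7.90 and 8.17 on arrays 1 and 2 and 8.83 on array 3, against 8.78, 8.87 and 8.63 in control.

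Nsf, the ATPase that recycles SNARE complexes, was read by 3 probe sets. On 1369689_at it had 10.63, 10.07 and 10.28 at 1 h, 9.67, 10.37 and 10.76 at 6 h, and 10.70, 10.76 and 10.73 in control. The 1 h values all lay below the control values, with -0.41 ± 0.23 at 1 h and -0.46 ± 0.23 at 6 h (adjusted p = 0.987). The second (1369690_at) gave -0.18 ± 0.14 and -0.14 ± 0.14. The third (1372528_at) gave -0.06 ± 0.08 and -0.05 ± 0.08, and its values ran from 11.22 to 11.49.

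Synaptotagmins came next, a family in which some members are calcium sensors. Of 13 synaptotagmin probe sets of 10 genes, 5 were positive and 8 negative at 1 h (median -0.04) and likewise at 6 h (median -0.11). With median centring 7 of 13 were positive at 1 h (median 0.09, beside 0.10 for all probe sets tested). Syt1, the sensor for fast release, had 8.96, 9.47 and 8.32 at 1 h, 7.11, 9.36 and 9.89 at 6 h, and 9.10, 9.56 and 9.67 in control. The low value on array 1 of the 6 h group set its range, and the log2 changes were -0.53 ± 0.59 at 1 h and -0.66 ± 0.59 at 6 h. Syt4, an atypical synaptotagmin of dense-core vesicles whose gene responds to activity, was read by 2 probe sets that differed. On 1387662_at it had 8.44, 7.58 and 7.74 at 1 h, 6.996, 7.97 and 9.41 at 6 h, and 8.39, 9.24 and 9.02 in control (-0.97 ± 0.51 at 1 h, adjusted p = 0.488). On 1375877_at it had 10.54, 10.29 and 10.38 at 1 h, 10.73, 10.41 and 10.60 at 6 h, and 10.48, 10.30 and 10.58 in control (-0.05 ± 0.11 at 1 h and 0.18 ± 0.11 at 6 h against 1 h). The second probe set therefore did not share the low values of the first. Syt3, Syt5, Syt11, Syt12, Syt13, Syt15, Syt16 and Syt17 had log2 changes between -0.38 and 0.18 at 1 h and between -0.38 and 0.12 at 6 h.

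The next group holds vesicle membrane proteins and the synapsins on their surface. Of 9 probe sets of synapsins, SV2 proteins and synaptophysin, 2 were positive and 7 negative at 1 h (median -0.10). With median centring 5 of 9 were positive (median 0.04), beside a median of 0.10 for all probe sets tested in that setting. Syp, synaptophysin, an abundant vesicle membrane protein, had 11.31, 11.07 and 11.53 at 1 h, 11.57, 11.10 and 11.02 at 6 h, and 11.31, 11.41 and 10.98 in control. These values overlapped fully (0.07 ± 0.17 at 1 h, -0.01 ± 0.17 at 6 h). Syn1, a synapsin that ties vesicles to actin, gave -0.05 ± 0.07 at 1 h and -0.03 ± 0.07 at 6 h on 1390196_at, and -0.09 ± 0.17 and -0.17 ± 0.17 on 1369251_a_at. Syn2 was the clearest case of probe sets that differ. On 1370431_at it had 10.02, 9.96 and 10.02 at 1 h, 9.94, 9.92 and 9.93 at 6 h, and 9.92, 9.91 and 9.89 in control. These 9 values had a pooled SD within groups of 0.02, and the 1 h values all lay above the others (0.09 ± 0.07 at 1 h, 0.03 ± 0.07 at 6 h). On 1369482_a_at it had 8.81, 8.68 and 8.19 at 1 h, 7.41, 8.70 and 9.65 at 6 h, and 8.99, 9.37 and 9.49 in control, with a pooled SD of 0.69 and log2 changes of -0.72 ± 0.44 and -0.70 ± 0.44. The third (1382850_at) gave -0.69 ± 0.36 and -0.57 ± 0.36. Sv2a, the vesicle protein that binds the drug levetiracetam, gave -0.11 ± 0.18 at 1 h and -0.09 ± 0.18 at 6 h. Sv2b had 11.03, 11.42 and 11.42 at 6 h, 10.92, 11.15 and 10.91 at 1 h, and 10.79, 11.22 and 11.24 in control on 1369628_at, where 6 h against 1 h gave 0.30 ± 0.14 (adjusted p = 0.996). Its other probe set (1369627_at) gave 0.19 ± 0.30.

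The RAB3 GTPases bring vesicles to the active zone. Of 5 probe sets, 4 were positive at 1 h (median 0.12) and 3 at 6 h (median 0.04). Rab3a, the main neuronal form, had 11.77, 11.64 and 11.71 at 1 h, 11.76, 11.61 and 11.61 at 6 h, and 11.68, 11.60 and 11.58 in control on 1391434_at (0.09 ± 0.07 and 0.04 ± 0.07), and its other probe set gave 0.12 ± 0.15 and -0.03 ± 0.15. Rab3b, a relative found in some interneurons and in endocrine cells, had 8.42, 8.37 and 8.42 at 1 h, 8.23, 8.39 and 8.34 at 6 h, and 8.21, 8.22 and 8.19 in control. Both exposed groups lay above the control, by 0.20 ± 0.09 at 1 h (adjusted p = 0.448) and 0.12 ± 0.09 at 6 h (adjusted p = 0.987). Rab3c had 6.56, 6.75 and 6.88 at 1 h, 6.48, 7.11 and 6.65 at 6 h, and 6.47, 6.42 and 6.48 in control. The 1 h values lay above all control values and the lowest 6 h value met the highest control value (0.27 ± 0.17 at 1 h, 0.29 ± 0.17 at 6 h). Rab3d, best known from secretory granules outside the brain, gave -0.17 ± 0.14 at 1 h and -0.02 ± 0.14 at 6 h.

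The 5 probe sets of active zone scaffolds and endocytic proteins all had negative log2 changes against control. With the values as deposited 1 of 3 endocytic probe sets was positive at 1 h. With median centring 1 of 3 endocytic probe sets was positive at both times and 1 of 2 scaffold probe sets at 6 h. That centring also moved the median of all probe sets tested, to 0.10 at 1 h and 0.07 at 6 h. Bsn, bassoon, a giant scaffold of the active zone, had 10.56, 10.43 and 10.53 at 1 h, 10.85, 10.44 and 10.63 at 6 h, and 10.64, 10.77 and 10.81 in control. All 1 h values lay below those of the control, by -0.23 ± 0.10 (0.85-fold, adjusted p = 0.437), and at 6 h the difference was -0.10 ± 0.10. With median centring the 1 h value was -0.06. Pclo, piccolo, its large relative, had 5.90, 5.99 and 6.04 at 1 h, against 6.18, 6.39 and 6.95 in control (-0.53 ± 0.29, adjusted p = 0.497), and 5.58, 6.47 and 6.80 at 6 h (-0.22 ± 0.29). Between 6 h and 1 h both scaffolds had positive values, 0.13 ± 0.10 for Bsn and 0.31 ± 0.29 for Pclo.

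Pacsin1, syndapin, which links the fission protein dynamin to actin, had the smallest p of all members at 6 h. On 1368959_at it had 4.999, 5.09 and 5.23 at 6 h, against 6.07, 5.97 and 5.65 in control, and 5.92, 5.47 and 5.82 at 1 h. All 6 h values lay below those of both other groups. The log2 change was -0.79 ± 0.17 at 6 h against control (0.58-fold, adjusted p = 0.397 by limma) and -0.63 ± 0.17 at 6 h against 1 h (adjusted p = 0.996). The mean of the 6 h values lay under the level that a probe set had to reach on average to be tested (5.21), so the size depended on the constant added before the logarithm: the 6 h value against control was -1.20 with 1 added and -0.39 with 64. The brighter Pacsin1 probe set (1368958_at) had 6.82, 8.75 and 8.85 at 6 h, 7.75, 9.12 and 6.62 at 1 h, and 8.14, 8.73 and 8.87 in control. Only array 1 of its 6 h group was low, and it gave -0.44 ± 0.64 at 6 h. Snap91, or AP180, which builds clathrin coats at synapses, gave -0.13 ± 0.10 at 1 h and -0.12 ± 0.10 at 6 h.

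**Figure D3:**
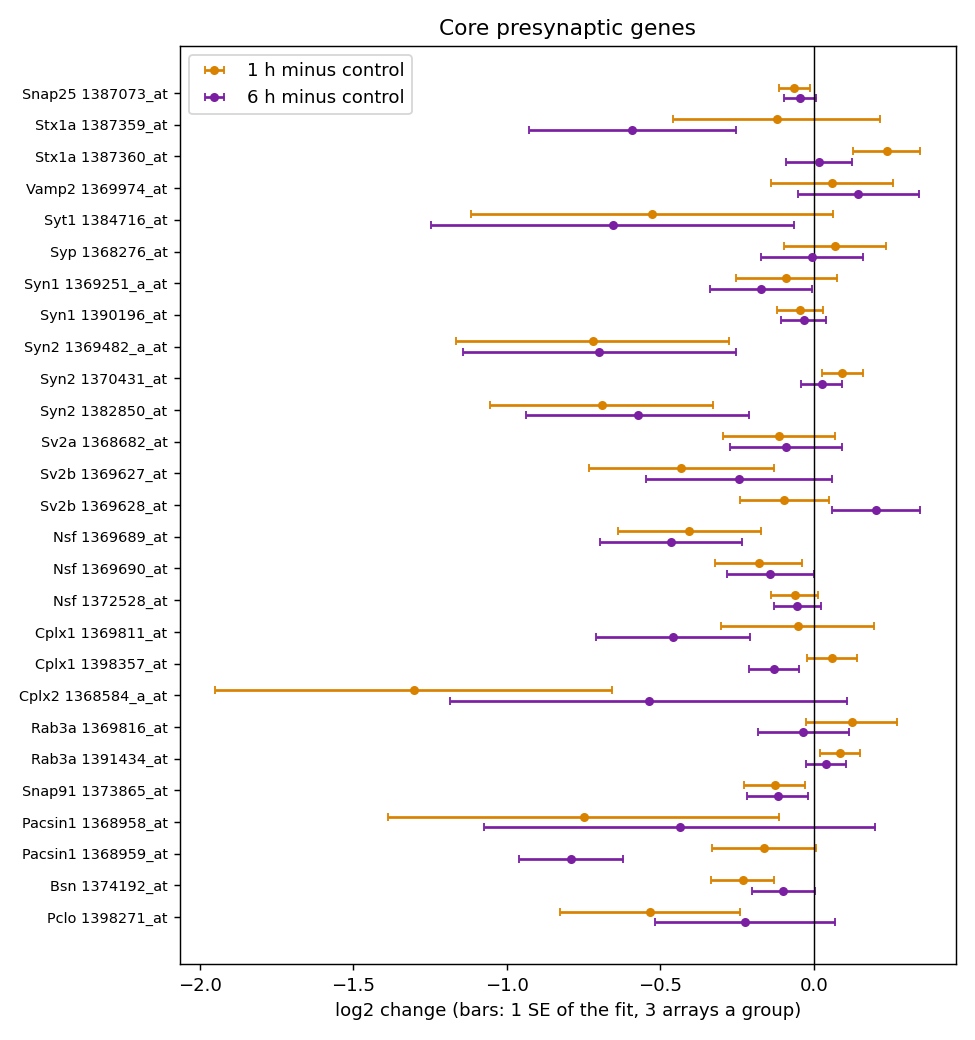
Log2 change at 1 h and 6 h against control for the core presynaptic members, all probe sets tested, with bars of 1 SE (3 arrays per group). Probe sets with a small SE after quantile normalisation, such as those of Snap25 (-0.06 ± 0.05 at 1 h) and Syn1 1390196_at (-0.05 ± 0.07), sit near 0 with short bars. Cplx2 (-1.30 ± 0.65) has the longest.

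The spread within groups was uneven among members. A pooled SD within groups over 0.3 was found for 19 of 74 members (25.7%), against 17.4% of all probe sets tested, while the median SD was 0.18 in members and 0.19 in all. Several of the members with a large spread were low on the same array. Syt1, Syn2 1369482_a_at, Stx1a 1387359_at, Nsf 1369689_at and Syt4 1387662_at each had their lowest value of 9 on array 1 of the 6 h group, and Cplx2 did too. That array had the highest beta-actin 3'/5' ratio (2.58). Array 3 of the 6 h group, with the lowest ratio (1.03), held the highest value of 9 for Syt1 (9.89), Syn2 1369482_a_at (9.65) and Syt4 1387662_at (9.41). Over the 9 arrays, which span all 3 groups, 14 of 74 members (18.9%) had a negative Pearson correlation with the ratio of a size over 0.7, against 6.48% of all probe sets tested, and 1 member (1.35%) had a positive one of that size, against 5.88%. These shares are a description with no test. With the ratio as a covariate, an alternative chosen after seeing the data, the count past an adjusted p of 0.05 was again 0 and the members' median at 6 h was 0.01 in place of -0.05. In that fit Vamp8 gave 0.53 at 1 h and Pacsin1 1368959_at gave -0.68 at 6 h. Genes read by 2 or 3 probe sets gave 26 pairs in 20 genes, and both probe sets of a pair had the same sign in 19 of 26 pairs at 1 h and in 15 of 26 at 6 h. Across the 9 arrays the median correlation within a pair was 0.08, with 11 of 26 pairs below 0 and 6 over 0.5, again as a description. For Syn2, Syt4, Stx1a and Cplx1, a size or direction therefore depends on the probe set read.

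**Figure D4:**
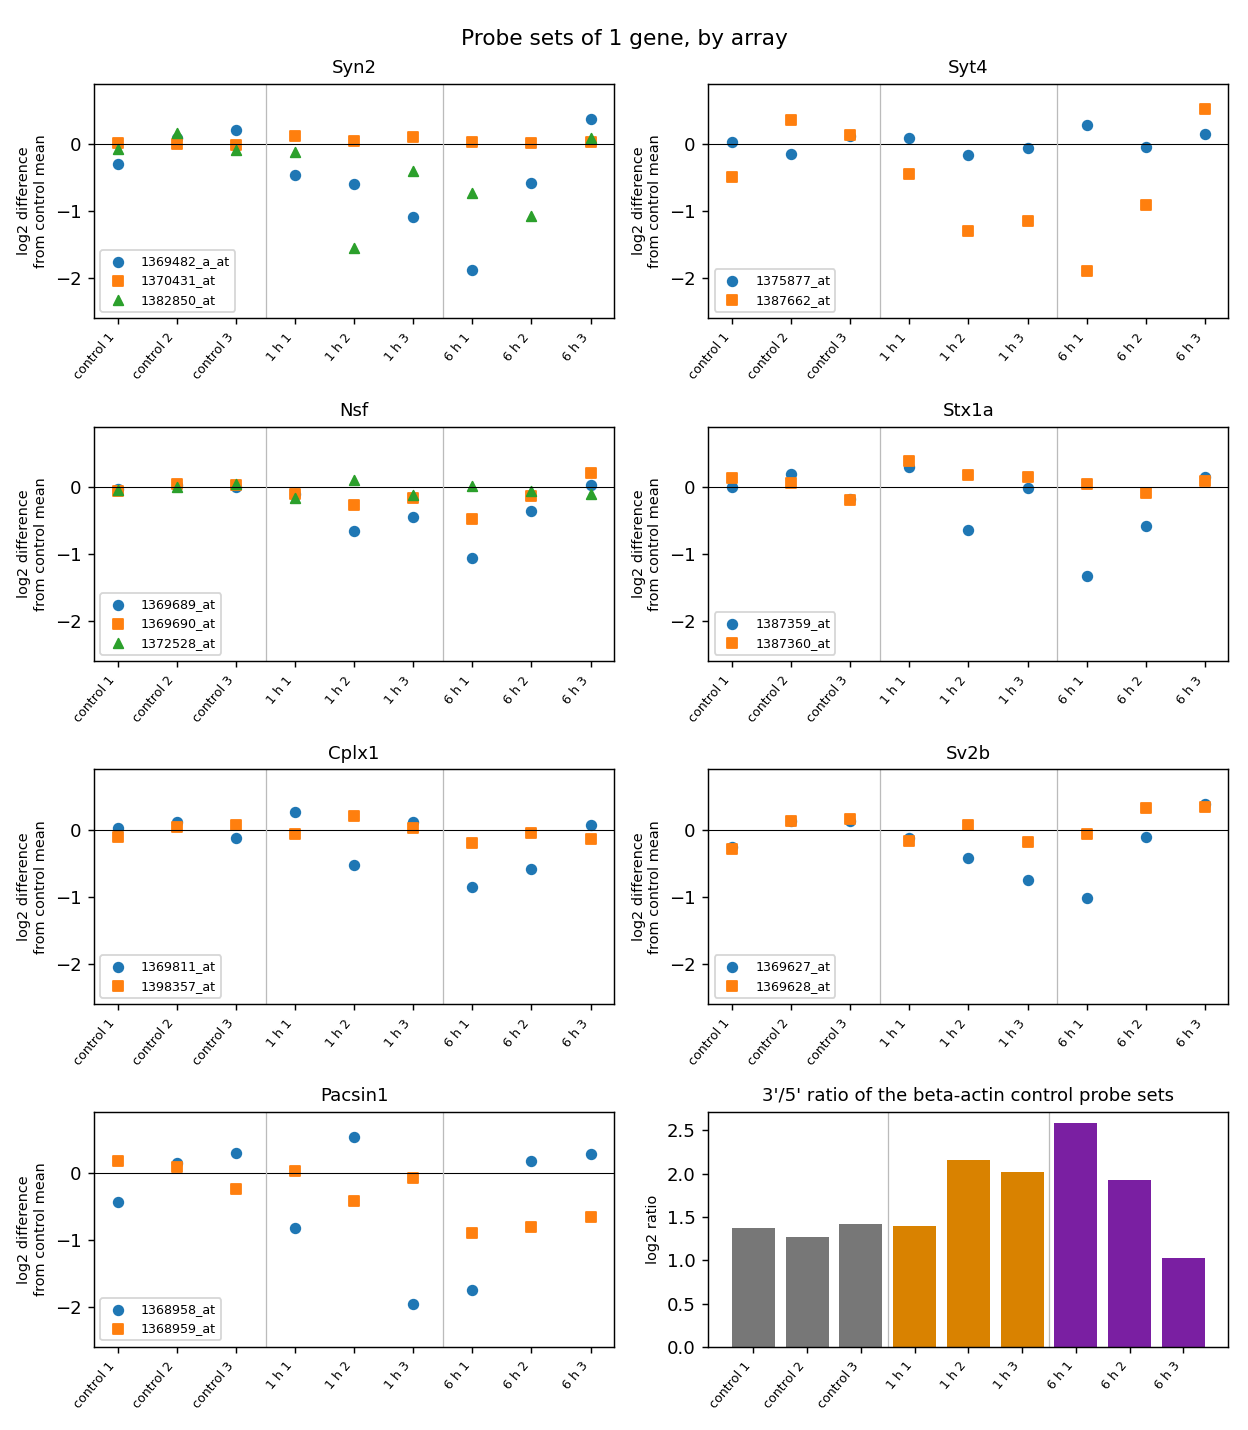
Log2 difference from the control mean on each of the 9 arrays for the probe sets of 7 genes (one symbol per probe set), with the beta-actin 3'/5' log2 ratio per array as bars from 0 in the last panel. In Syn2 and Syt4 one probe set stays near 0 while another lies far below it on array 1 of the 6 h group, where the ratio is highest (2.58).

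Levels are given per probe set and not as an order between genes, since probes differ in how well they bind. The highest mean signals among members tested were 6155.7 for Snap25, 3304.4 for Cplx1 1398357_at and 3222.6 for Rab3a 1391434_at. The lowest were 24.07 for Stx3, 24.53 for Snap29 1369316_s_at and 24.73 for Syt15. No probe set was tested for Syt2, Syt6, Syt7, Syt8, Syt9, Syt10, Sv2c, Syn3, Stx11 and Stx17, and the mean signal of the 23 untested member probe sets ran up to 19.90.

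Other presynaptic and SNARE genes were read from a list of transporters, active zone and priming proteins, endocytic proteins, vesicle proteins, the vesicular proton pump and further SNAREs, with 157 probe sets of 106 genes tested. By limma 0 passed an adjusted p of 0.05 in any comparison. At an unadjusted p under 0.05, 5 were higher and 10 lower at 1 h (3.18% and 6.37%, against 6.68% and 4.67% of all). At 6 h, 2 were higher and 3 lower (1.27% and 1.91%, against 2.79% and 1.47% of all). At 6 h against 1 h, 2 were higher and 1 lower (1.27% and 0.637%, against 1.31% and 1.41% of all). The smallest p belonged to Rims1, a priming scaffold that binds RAB3. It had 7.14, 6.90 and 6.91 at 1 h and 7.05, 7.11 and 7.58 at 6 h, against 7.56, 7.86 and 8.10 in control. All 1 h values lay below those of the control (-0.86 ± 0.18, adjusted p = 0.256), and at 6 h the value of array 3 reached into them (-0.59 ± 0.18, adjusted p = 0.98). Of the 22 probe sets of the active zone and priming list, to which Rims1 belongs, 3 were lower and 1 higher at 1 h at an unadjusted p under 0.05. The higher one was a probe set of Ppfia1, with 6.46, 7.14 and 6.76 at 1 h, against 6.43, 6.44 and 6.37 in control (0.37 ± 0.16, adjusted p = 0.435). Among the others lower at 1 h was Cltc, the clathrin heavy chain (-0.28 ± 0.08, adjusted p = 0.335), and among those higher were Ykt6, a SNARE of the Golgi (0.46 ± 0.13, adjusted p = 0.335), and Atp6v0b, a proton pump subunit (0.27 ± 0.11, adjusted p = 0.398, with -0.27 ± 0.39 on a dim second probe set). At 6 h the smallest p values belonged to Ap2a2, a subunit of the endocytic adaptor AP2 (-0.29 ± 0.09), to Sncg, gamma-synuclein (0.44 ± 0.18), and to Ppfia1, a liprin (0.42 ± 0.16, with -0.10 ± 0.15 on its other probe set), beside Rims1, with an adjusted p of 0.987 for each of the first 3. Between 6 h and 1 h they belonged to Dnm3, a dynamin (0.37 ± 0.14, with 0.03 ± 0.23 on its other probe set), Cltc (0.20 ± 0.08), Atp6v1g1 (-0.34 ± 0.14) and Atp6v1c1 (-0.19 ± 0.10), both proton pump subunits.

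Markers of neurons are set beside these values, since the members are mostly neuronal. Counts here are at an unadjusted p under 0.05, where 4.67% of all probe sets were lower and 6.68% higher at 1 h. Of 11 excitatory neuron marker probe sets tested, 5 were lower and 0 higher at 1 h. Those lower belonged only to Camk2a, with several probe sets, Prox1 and Tbr1. At 6 h, 4 were lower and 0 higher (1.47% and 2.79% of all), and 0 passed an adjusted p of 0.05 by limma. Their summed signal was 9172 to 11144 at 1 h, 9474 to 10199 at 6 h and 10714 to 11863 in control. For general neuron markers, 2 of 12 were lower at 1 h, and the summed signal was 16808 to 17021 at 1 h, 16108 to 17255 at 6 h and 16529 to 18169 in control. Interneuron markers gave 10240 to 10803 at 1 h, 9426 to 9948 at 6 h and 8787 to 9014 in control, with 3 of 9 higher and 1 lower at 1 h. Of 13 astrocyte marker probe sets, 3 were lower and 0 higher at 1 h, and their summed signal was 18286 to 19896 at 1 h, 18721 to 19497 at 6 h and 18460 to 18804 in control. Their part in the members' values was not tested.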

How the data were processed

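Expression was read from 9 arrays in 3 groups of 3, as the labels group them. The deposited table holds intensity (signal on a linear scale, judged by the values) for 31099 probe sets. The authors' software and filters are not given in the sources used, and the mean without the lowest and highest 2% of values was 150 on each array.

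Intensities became log2(signal + 16) and were quantile normalised, because array medians spanned 0.206 (limit 0.2). The 57 control probe sets and those with a mean under the 40th percentile (log2 5.21) were left out, leaving 18625. One model was fitted by limma (version 3.58.1, R 4.3.3; lmFit, eBayes with an intensity trend, 6 residual degrees of freedom), and p-values were adjusted by Benjamini-Hochberg over all 18625 at 0.05. Arrays have no read depth, and their number limits the precision.

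Members and lists were chosen with earlier results of these data known. Named genes are the 5 members with the smallest p in each direction and comparison, a set of core presynaptic genes, the 3 highest and 3 lowest mean levels and, of other presynaptic genes, the 2 with the smallest p per direction and comparison. Any past the threshold would also be named. Further members were named after their values were seen. The probe sets elsewhere on the array with the pattern most like the members' are not reported. Alternatives covered scaling (as deposited, median centring), the added constant (1 or 64), the filter (none, 60th percentile), the trend, array weights, a replicate block, fitting only the compared groups, and leaving out each array. A self-test on 18625 simulated probe sets of the 1 h comparison, 200 of them changed, recovered 63.6% of log2 changes of 1 and 18% of those of 0.5 over 5 runs. It made 34 false calls over these runs. The simulated noise was independent between probe sets, without the differences that real arrays share, so recovery in these data may differ. Figures were made with matplotlib 3.10.9.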

Additional observations from a re-analysis of the deposited data

How the results depend on the processing

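All 13 counts and medians were computed under up to 22 other settings (285 values): 235 kept within the limits used and 50 moved. The 30 changes named for their small p (644 values) kept their direction, and 0 passed an adjusted p of 0.05 in any setting. They were picked by p from these same data, which favours a stable sign. Of all 74 members, the sign was the same in every alternative for 41 at 1 h and 30 at 6 h against control. At 6 h against 1 h it was the same for 38. The counts past an adjusted p of 0.05 were 0 in every setting, and the lowest adjusted p of any member was 0.0903 at 1 h, 0.186 at 6 h and 0.58 at 6 h against 1 h. The cause of the moves below was not tested.

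The median at 1 h was 0.1023 with median centring, 0.0253 with array weights and 0.0681 with 1 probe set per gene. At 6 h it was 0.0174 with median centring, 0.0101 with the 3'/5' ratio as a covariate and 0.0148 with 1 probe set per gene, and at 6 h against 1 h it was 0.0028 without the 2 arrays farthest on the first principal component. These last 3 settings were chosen after seeing the data. With median centring the median of all probe sets tested was 0.0958 at 1 h and 0.0707 at 6 h. With single arrays left out, the members' medians ran from -0.06 to 0.01 at 1 h, from -0.07 to 0.0028 at 6 h and from -0.06 to 0.0028 at 6 h against 1 h.

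A count without a share of all probe sets beside it shows only how far the number moved, not a result about the members. For counts at an unadjusted p under 0.05, 1 h higher gave 11 with median centring (11.3% of all probe sets), 5 with no filter, and 1 to 4 with single arrays left out. The count lower at 1 h gave 0 as deposited, with median centring, with the 60th percentile or with no trend; 2 with no filter or 1 probe set per gene; 4 with array weights (7.04% of all); 9 with only the compared groups (6.86%); 7 without the 2 farthest arrays (5.14%); and 0 to 8 with single arrays left out. At 6 h, higher gave 2 with median centring (3.91% of all), 1 with no filter, 4 with array weights (3.48%), 2 without the 2 farthest arrays and 0 to 2 with single arrays left out. The count lower at 6 h gave 0 with the 60th percentile or 1 probe set per gene and 1 to 10 with single arrays left out. At 6 h against 1 h, higher gave 3 with array weights (3.38% of all), 1 with only the compared groups, 4 without the 2 farthest arrays (2.49%) and 0 to 5 with single arrays left out, and lower gave 5 with the 3'/5' covariate (1.79%) and 1 to 4 with single arrays left out.

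Whether replicate numbers in the labels pair the arrays could not be decided. Deviations of same-numbered arrays correlated at -0.36 to 0.54, but each deviation is from a mean of only 3 arrays. With the replicate block, 3 members were lower at 1 h, 1 higher at 6 h and 2 higher at 6 h against 1 h at an unadjusted p under 0.05, and the count past an adjusted p of 0.05 was 0. These unadjusted counts are given without the share of all probe sets and are not read as a result about the members. With 3 arrays a group, changes of the size seen in most members (a median SE of 0.14) could not be told apart from 0, and probe sets near background give sizes that depend on the added constant.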
